A study of Mus musculus with 7 samples.

Results

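The transcripts of 10 genes that release fatty acids from lipoproteins, carry them into adipocytes and bind or activate them there were followed in mouse fat cells with and without the free fatty acid receptor FFA2. The genes were chosen by symbol, from their known roles, as Lpl, Lmf1, Gpihbp1, Angptl4, Cd36, Slc27a1, Slc27a4, Fabp4, Fabp5 and Acsl1. They were 10 of the 57010 gene identifiers in the count table. These genes, and the lists of other genes used below, were chosen with earlier results of these data known. All 10 passed the filter on low counts. The RNA came from mature white adipocytes, freed by collagenase from the perigonadal (epididymal) fat of 20-week-old male mice on the SC chow diet. The 3 FFA2 fl/fl mice carried floxed Ffar2 alleles without Cre, and the 4 Adipoq-F2-KO mice carried the same floxed alleles together with a Cre transgene under the adiponectin promoter, which is active in adipocytes and leaves Ffar2 in other cell types. A Cre-positive group without floxed alleles was not analysed here, so the deletion and the presence of the transgene cannot be told apart. Each library held 30478997 to 39992605 counts, and values are given as normalized CPM, which are counts scaled to a common library size (CPM) with factors from the trimmed mean of M-values (TMM).

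Adipocytes store fatty acids that arrive in the blood inside triglyceride-rich lipoproteins. Lipoprotein lipase is made by adipocytes, matures in the endoplasmic reticulum, and is carried across capillary endothelial cells to the vessel lumen, where it hydrolyses triglycerides and where angiopoietin-like proteins inhibit it. The fatty acids released are taken up with the help of CD36 and fatty acid transport proteins, bound in the cytosol by fatty acid-binding proteins, and joined to coenzyme A by acyl-CoA synthetases before they are stored or oxidized.

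Counts of Ffar2, the targeted gene, were 1404, 1346 and 1094 in the controls against 67, 38, 48 and 76 in the knockouts, a log2 fold change of -4.36 (SE 0.22, edgeR adjusted p = 7.97e-06). Across the 17039 genes tested, 136 rose and 37 fell in Adipoq-F2-KO adipocytes, so that 1.02% passed an adjusted p under 0.05. That count was 1, 41 and 5 without FFA2 fl/fl library 1, 2 or 3, and 11 and 20 without Adipoq-F2-KO library 2 or 3. Genes of the mitochondrial chromosome took 4.41% to 5.77% of the counts in FFA2 fl/fl libraries and 6.61% to 10.3% in Adipoq-F2-KO libraries. The highest share was in Adipoq-F2-KO library 4. Another gene, ENSMUSG00000119584, took 0.619% of the counts in FFA2 fl/fl library 3 and 6.76% in Adipoq-F2-KO library 4. With the mitochondrial genes and ENSMUSG00000119584 left out, 165 genes passed the threshold (129 higher, 36 lower), and 0 of the 10 uptake genes did. The cause of the higher mitochondrial share was not tested.

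The 10 genes spanned a wide range of expression. Together they took 2.29% to 2.98% of all counts in a library. By mean normalized CPM, Fabp4 was the 8th and Lpl the 10th most abundant of the tested genes, Cd36 ranked 26th and Acsl1 46th, while Slc27a4 ranked 3588th and Lmf1 5165th. On a scale per length (TPM, which are counts per kilobase scaled to the same sum in every library, with the exon lengths in the deposited table), Fabp4 lay highest at 6040 to 8519 TPM over the 7 libraries. Cd36 followed at 2411 to 2759 TPM and Lpl at 1732 to 2552 TPM, and these ranges overlapped. Next came Angptl4 at 778 to 1351 TPM, Acsl1 at 483 to 743 TPM and Slc27a1 at 190 to 379 TPM. The low end held Gpihbp1 at 136 to 180 TPM, Fabp5 at 53.7 to 85.0 TPM, Slc27a4 at 26.3 to 38.9 TPM and Lmf1 at 5.72 to 8.05 TPM. No other neighbours in this order overlapped. The table's lengths join all annotated exons of a gene, which for Fabp4 gave 4489 bases against 896 bases in its longest coding transcript of GENCODE M21. With the latter lengths Fabp4 stayed highest, Lpl moved above Cd36, Acsl1 above Angptl4, and Lmf1 above Slc27a4.

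**Figure D1:**
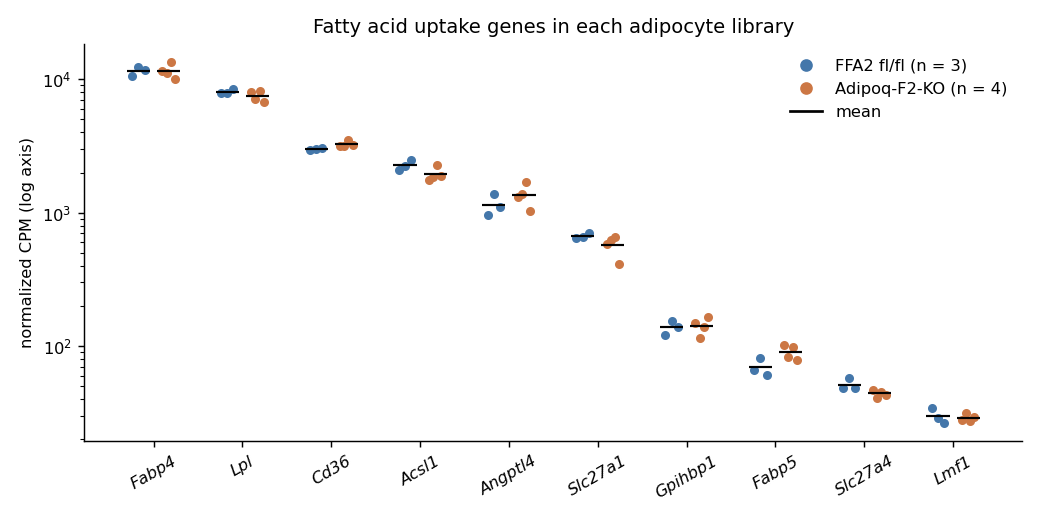
Normalized CPM (log axis) of the 10 genes in each library, ordered by their FFA2 fl/fl mean. Each point is 1 library (3 FFA2 fl/fl, 4 Adipoq-F2-KO) and each bar a genotype mean. The genotypes overlap for 8 of the 10 genes, and levels run from 10084 to 13485 normalized CPM for Fabp4 down to 26.5 to 34.4 for Lmf1.

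The comparison of genotypes asked whether adipocytes without FFA2 differ in the transcripts that bring fatty acids into the cell. None of the 10 genes passed the adjusted threshold in edgeR (0 of 10, beside 1.02% of all tested genes), and 0 passed with DESeq2 or with limma voom. At an unadjusted p under 0.05, 1 of the 10 passed, Fabp5, beside 17.9% of all tested genes. The genes split into 4 with a fold change above and 6 with one below the controls, and their median log2 fold change was -0.03, against 0.00 over all tested genes. In normalized CPM, libraries of the genotypes did not overlap for 1 gene that was higher in Adipoq-F2-KO adipocytes, Cd36 (8.86% of all tested genes lay apart in that direction). They also did not overlap for 1 that was lower, Slc27a4 (8.72% of all tested genes). These p-values measure the spread between the mice sequenced here. Because the samples were bulk RNA, fewer cells of a type and less RNA per cell cannot be told apart in any of these values.

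**Figure D2:**
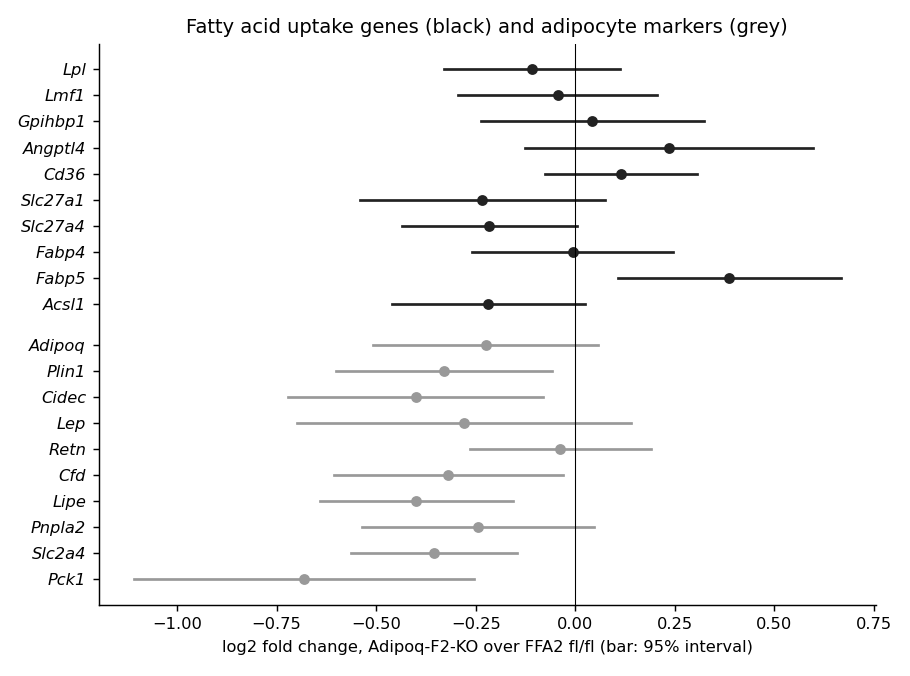
Log2 fold change of the 10 genes (black) and of 10 adipocyte markers (grey), Adipoq-F2-KO (n = 4) over FFA2 fl/fl (n = 3), from the edgeR fit over all tested genes. Bars are 95% intervals. The interval of Fabp5 lies above 0 (0.11 to 0.67), the other 9 uptake genes have intervals that include 0, and the 10 markers all have values below 0.

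Lpl (8:69333143-69360100, coordinates throughout as the deposited table gives them), which encodes the lipase itself, was at 7916, 7922 and 8465 normalized CPM in FFA2 fl/fl adipocytes and at 8035, 7099, 8158 and 6751 in Adipoq-F2-KO adipocytes. The means were 8101 ± 315 (SD, n = 3) and 7511 ± 693 (SD, n = 4), and the libraries overlapped, with the lowest value in Adipoq-F2-KO library 4. The difference of -7.29% had a 95% interval from -20.4% to 8.01% (edgeR adjusted p = 0.609), and its log2 fold change of -0.11 was -0.06 without FFA2 fl/fl library 3 or without Adipoq-F2-KO library 4. Lmf1 (17:25798059-25881800), which encodes a chaperone of the endoplasmic reticulum needed for the lipase to fold, lay between 26.5 and 34.4 normalized CPM in controls and between 27.4 and 31.3 in Adipoq-F2-KO adipocytes. Its difference was -3.01% (95% interval -18.4% to 15.3%, edgeR adjusted p = 0.880).

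Gpihbp1 (15:75468477-75471330) encodes the anchor that capillary endothelial cells use to bind the lipase and move it to the lumen, so its transcript is known mainly from endothelial cells. It was measured at 121, 154 and 140 normalized CPM in FFA2 fl/fl libraries and at 148, 115, 139 and 166 in Adipoq-F2-KO libraries. The groups overlapped over nearly their full range, and the difference was 3.00% (95% interval -15.2% to 25.1%, edgeR adjusted p = 0.897). Angptl4 (17:33992724-34000804), which encodes the inhibitor that unfolds lipoprotein lipase in fasting adipose tissue, was at 964, 1375 and 1106 normalized CPM in controls and at 1315, 1378, 1687 and 1025 in Adipoq-F2-KO adipocytes. The mean was 1149 ± 209 (SD, n = 3) in controls and 1351 ± 272 (SD, n = 4) without FFA2. The difference of 17.6% had a wide interval, from -8.40% to 51.1% (edgeR adjusted p = 0.487). Its log2 fold change of 0.23 ranged from 0.11 without Adipoq-F2-KO library 3 and 0.12 without FFA2 fl/fl library 1 to 0.38 without FFA2 fl/fl library 2.

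Cd36 (5:17986688-18093799), the main membrane protein that assists long-chain fatty acid uptake in adipocytes, was at 2972, 3022 and 3054 normalized CPM in FFA2 fl/fl adipocytes. It was at 3188, 3164, 3492 and 3219 in Adipoq-F2-KO adipocytes, and each of these values lay above each control. The means were 3016 ± 41.4 (SD, n = 3) and 3266 ± 152 (SD, n = 4), and a two-sided exact permutation test gave p = 0.0286, the smallest that 3 against 4 libraries allow. In the fit over all genes the difference of 8.30% (95% interval -5.07% to 23.5%) had an adjusted p of 0.524. The separation depended on the scale: in TPM, Cd36 was at 2512 to 2687 in controls and at 2411 to 2759 in Adipoq-F2-KO adipocytes, which overlapped. In TPM, which takes no TMM factor, other genes lay apart, and lower in Adipoq-F2-KO adipocytes. Slc27a1 was at 338 to 379 TPM in controls and 190 to 321 without FFA2, and Acsl1 at 632 to 743 and 483 to 616. Slc27a4 was at 34.6 to 38.9 and 26.3 to 31.6. Fabp4, with means of 11626 and 11576 normalized CPM in controls and Adipoq-F2-KO adipocytes, also had a lower knockout mean in TPM (8039 and 7417). The share of all tested genes that lie apart in TPM was not counted, so these separations cannot be read as results about the genes.

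The fatty acid transport proteins FATP1 and FATP4 combine transport with acyl-CoA synthetase activity. Slc27a1 (8:72021526-72039946), which encodes FATP1, was at 649, 660 and 700 normalized CPM in controls and at 587, 625, 653 and 412 in Adipoq-F2-KO adipocytes, with library 4 far below the rest. Its difference of -15.0% (95% interval -31.3% to 5.27%, edgeR adjusted p = 0.411) corresponds to a log2 fold change of -0.23, which shrank to -0.11 when knockout library 4 was left out. Slc3a2 is 95.2% identical to Slc27a1 over 167 bases and held 47803 counts in all against 154148, so counts from that stretch are uncertain. Slc27a4 (2:29692646-29707534), which encodes FATP4, was at 48.1, 57.5 and 48.3 normalized CPM in controls. It was at 47.0, 40.8, 45.6 and 43.2 in Adipoq-F2-KO adipocytes, each below each control, although the gap between the nearest libraries was only from 47.0 to 48.1. Its difference of -13.9% (95% interval -26.1% to 0.368%) had an unadjusted p of 0.0548 and an adjusted p of 0.292 in edgeR, and its log2 fold change of -0.22 was -0.13 without FFA2 fl/fl library 2. A two-sided exact permutation test of the levels gave p = 0.0286.

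Acsl1 (8:46924074-46989088) encodes the principal long-chain acyl-CoA synthetase of adipocytes, which traps fatty acids in the cell by activating them. It was at 2096, 2221 and 2466 normalized CPM in FFA2 fl/fl adipocytes and at 1773, 1841, 2276 and 1882 in Adipoq-F2-KO adipocytes. Library 3 of the knockouts lay among the controls and the other 3 lay below all of them. The means of 2261 ± 188 (SD, n = 3) and 1943 ± 227 (SD, n = 4) differed by -14.1% (95% interval -27.3% to 1.63%, edgeR unadjusted p = 0.0722, adjusted p = 0.325), and the log2 fold change of -0.22 was -0.14 without FFA2 fl/fl library 3. A small antisense gene, Gm45244, shares 1039 exon bases with Acsl1, and it held 533 counts in all against 519852 for Acsl1.

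The fatty acid-binding proteins of adipocytes are FABP4, also called aP2, and FABP5, and both are also found in macrophages and in capillary endothelial cells. Their genes lie on chromosome 3 (3:10269148-10273636 for Fabp4 and 3:10077608-10081667 for Fabp5). Because the counts of these related genes are compared below, the start of their coding sequences (GENCODE M21) is shown, with bases that differ between the genes in capitals. The stretch covers coding bases 4 to 93 of 399 in Fabp4 and 10 to 99 of 408 in Fabp5.
Fabp4: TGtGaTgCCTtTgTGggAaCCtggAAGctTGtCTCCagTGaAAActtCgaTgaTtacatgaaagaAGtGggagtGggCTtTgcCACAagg
Fabp5: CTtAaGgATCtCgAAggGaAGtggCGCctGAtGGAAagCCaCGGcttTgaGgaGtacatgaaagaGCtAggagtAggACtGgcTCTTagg
In this stretch 41 of 90 bases differed. Over the aligned coding sequence the genes shared 60.9% of bases, and the longest identical run was 12 bases. Fabp5 has closer relatives elsewhere, the predicted genes Gm6166 (98.3% identical over 409 bases) and Gm14328 (97.3% over 408 bases). These held 812 and 453 counts over the 7 libraries, and Fabp5 held 92.6% to 95.2% of the summed counts of the 3 genes in each library, so its counts carry that uncertainty.

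Fabp4 was at 10660, 12482 and 11737 normalized CPM in FFA2 fl/fl adipocytes and at 11598, 11138, 13485 and 10084 in Adipoq-F2-KO adipocytes. The knockout libraries lay on both sides of the controls. The means of 11626 ± 916 (SD, n = 3) and 11576 ± 1422 (SD, n = 4) differed by -0.431%, with a 95% interval from -16.4% to 18.6% (edgeR adjusted p = 0.987). Fabp5 was at 66.0, 81.1 and 60.6 normalized CPM in controls and at 102, 82.5, 98.2 and 79.2 in Adipoq-F2-KO adipocytes. Knockout library 4 lay below FFA2 fl/fl library 2, and the other knockout libraries lay above all controls. Its means were 69.2 ± 10.6 (SD, n = 3) and 90.5 ± 11.4 (SD, n = 4), a difference of 30.8% (95% interval 7.74% to 58.7%) with an unadjusted p of 0.0110 and an adjusted p of 0.154 in edgeR. The exact permutation test of its levels gave p = 0.114, and its adjusted p in DESeq2 was 0.0598. Fabp5 passed the threshold when only genes without any count were removed (adjusted p = 0.0287, where 3.76% of all genes were called higher) and when libraries were scaled by adipocyte markers (adjusted p = 0.0395, where 2.86% were).

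Ratios within a library do not depend on its scaling, and 4 pairs were compared by role, with exact two-sided permutation tests adjusted over the 4 pairs. Fabp5 per kilobase was 0.779%, 0.818% and 0.650% of Fabp4 in FFA2 fl/fl adipocytes and 1.11%, 0.932%, 0.917% and 0.988% in Adipoq-F2-KO adipocytes. All knockout libraries lay above all controls, and the ratio was 1.32-fold higher (exact permutation p = 0.0286, adjusted p = 0.114). The ratio of the inhibitor Angptl4 to Lpl was 36.0%, 51.4% and 38.7% in controls and 48.4%, 57.4%, 61.2% and 44.9% in Adipoq-F2-KO adipocytes. These overlapped, with a mean 1.27-fold higher (exact permutation p = 0.143, adjusted p = 0.286). Gpihbp1 per kilobase was 7.00% ± 0.887 (SD, n = 3) of Lpl in controls and 7.84% ± 1.56 (SD, n = 4) in Adipoq-F2-KO adipocytes, and the groups overlapped (exact permutation p = 0.486, adjusted p = 0.648). Slc27a4 was 10.1% ± 1.24 (SD, n = 3) of Slc27a1 in controls and 10.6% ± 2.33 (SD, n = 4) without FFA2 (exact permutation p and adjusted p both 0.83). The percentages rest on the deposited exon lengths, whereas the fold differences between genotypes do not.

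**Figure D3:**
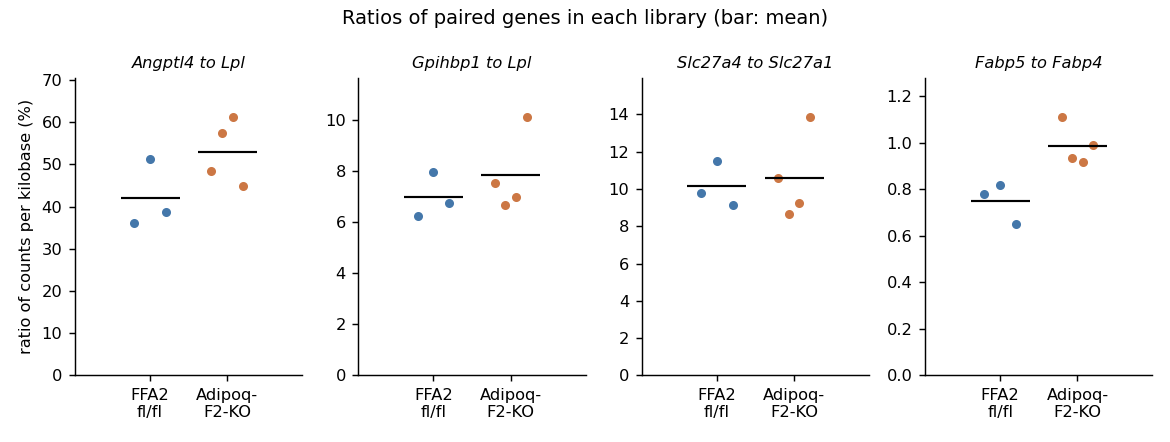
Ratio of counts per kilobase (%) of 4 pairs of genes in each library, with axes that start at 0. Points are libraries (blue, 3 FFA2 fl/fl, and orange, 4 Adipoq-F2-KO) and bars are means. The genotypes lie apart only for Fabp5 to Fabp4, at 0.650% to 0.818% against 0.917% to 1.11%.

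Within each family the same gene dominated in both genotypes. Fabp4 made up 99.0% ± 0.240 (SD, n = 3) of the transcripts per length of 9 Fabp genes in FFA2 fl/fl adipocytes and 98.6% ± 0.286 (SD, n = 4) in Adipoq-F2-KO adipocytes. Slc27a1 made up 90.1% ± 0.851 (SD, n = 3) and 89.5% ± 1.94 (SD, n = 4) of 6 Slc27a genes. Acsl1 made up 92.0% ± 0.911 (SD, n = 3) of 7 acyl-CoA synthetase genes in controls and 89.6% ± 1.26 (SD, n = 4) without FFA2, where every knockout library lay below every control (exact permutation p = 0.0571). The share of Acsl4, which prefers arachidonic acid, was 2.10% ± 0.190 (SD, n = 3) in controls and 3.77% ± 1.04 (SD, n = 4) in Adipoq-F2-KO adipocytes (exact permutation p = 0.0571). Mean shares were 1.07% and 1.62% for Acsl3, and 0.741% and 0.972% for Fabp5 among the Fabp genes (exact permutation p = 0.0286 for each). For Acsl4, Acsl3 and Fabp5, named after their values were seen, every knockout library lay above every control. These p-values are not adjusted, and how often other genes lie apart on this measure was not counted.

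The cells in the libraries were checked with marker genes, since several of the 10 genes are also used by cells other than adipocytes. As background for the calls below, edgeR called 173 genes in all, limma voom 208 (166 higher, 42 lower) and DESeq2 890 (670 higher, 220 lower). Of all tested genes, 17.9% had an unadjusted edgeR p under 0.05. The adipocyte markers were abundant in every library, led by Cfd, Cidec and Adipoq. All 10 of them had a fold change below 0 and none passed the threshold in edgeR (0 of 10, with 6 lower at an unadjusted p under 0.05). In DESeq2 3 passed, Pck1, Lipe and Slc2a4, all lower, and in limma voom 0. Their median log2 fold change was -0.32, and their summed level was 35340 to 39292 normalized CPM in FFA2 fl/fl libraries and 23980 to 32624 in Adipoq-F2-KO libraries. The lowest sum belonged to Adipoq-F2-KO library 4. Relative to the mean log2 level of these markers, 5 of the 10 uptake genes lay higher in each knockout library than in each control, beside 31.3% of all tested genes that lay apart in that direction on this scale. The differences were 0.33 on the log2 scale for Fabp4, 0.46 for Cd36, 0.57 for Angptl4 and 0.73 for Fabp5, each with an exact permutation p of 0.0286 and 0.0858 after adjustment over 12 such comparisons. The difference was 0.23 for Lpl (exact permutation p = 0.0571, adjusted p = 0.114). The remaining 5 genes, Lmf1, Gpihbp1, Slc27a1, Slc27a4 and Acsl1, had differences of 0.31, 0.38, 0.09, 0.13 and 0.12 with overlapping libraries. The comparison with marker lists was added after the levels had been seen, and on this scale no gene was lower. When libraries were scaled by these markers in place of TMM, the median of all tested genes was itself 0.36. Relative to that median Lpl stood at -0.12, Slc27a1 at -0.27, Slc27a4 at -0.22, Acsl1 at -0.23, Fabp4 at -0.03 and Lmf1 at -0.05. Above it stood Gpihbp1 at 0.06, Cd36 at 0.11, Angptl4 at 0.20 and Fabp5 at 0.36.

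The endothelial markers, led by Cdh5, Pecam1 and Cldn5, had fold changes above 0 in 12 of 12 genes (log2 0.33 to 0.65) with 0 passing the threshold in edgeR and 10 at an unadjusted p under 0.05. In DESeq2 5 passed, Cdh5, Cldn5, Tek, Erg and Pecam1, all higher, and in limma voom 0. Their sum was 1264 to 1646 normalized CPM in controls and 1739 to 2809 in Adipoq-F2-KO libraries. The level of Gpihbp1, whose product is known from these cells, differed by 3.00% as given above. Relative to the mean log2 level of the endothelial markers Gpihbp1 had a log2 difference of -0.44 in Adipoq-F2-KO libraries, and the libraries did not overlap (exact permutation p = 0.0571, adjusted p = 0.114), as was so in that direction for 29.3% of all tested genes. Of 15 macrophage markers, 13 had a fold change above 0 and 2 below, with 10 higher and 1 lower at an unadjusted edgeR p under 0.05. In edgeR 2 were called, and both rose, whereas DESeq2 called 8 and limma voom 3, all higher. Lyz2, which encodes lysozyme, rose with a log2 fold change of 0.69 (SE 0.12, edgeR adjusted p = 0.0383), and Cd68, which encodes a lysosomal glycoprotein, with 0.72 (SE 0.14, edgeR adjusted p = 0.0416). The call of Lyz2 was lost without FFA2 fl/fl library 1 or 3 or Adipoq-F2-KO library 2 or 3, and that of Cd68 without any 1 library other than FFA2 fl/fl library 2 (adjusted p 0.0546 to 0.227 over both genes). The most abundant genes of that list were Lyz2, Mertk and Csf1r, of which Mertk had a log2 fold change of -0.42 (edgeR adjusted p = 0.152) and Csf1r of 0.47 (edgeR adjusted p = 0.0857), and the median log2 fold change of the list was 0.61. Its sum was 453 to 509 normalized CPM in controls and 594 to 684 in Adipoq-F2-KO libraries. Relative to the mean of these macrophage markers, Fabp5 differed by -0.06 on the log2 scale with overlapping libraries (exact permutation p = 0.771). Fabp5 was not set against the endothelial markers. The part of endothelial cells and macrophages in the levels of the 10 genes, Gpihbp1 and Fabp5 among them, was not tested.

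**Figure D4:**
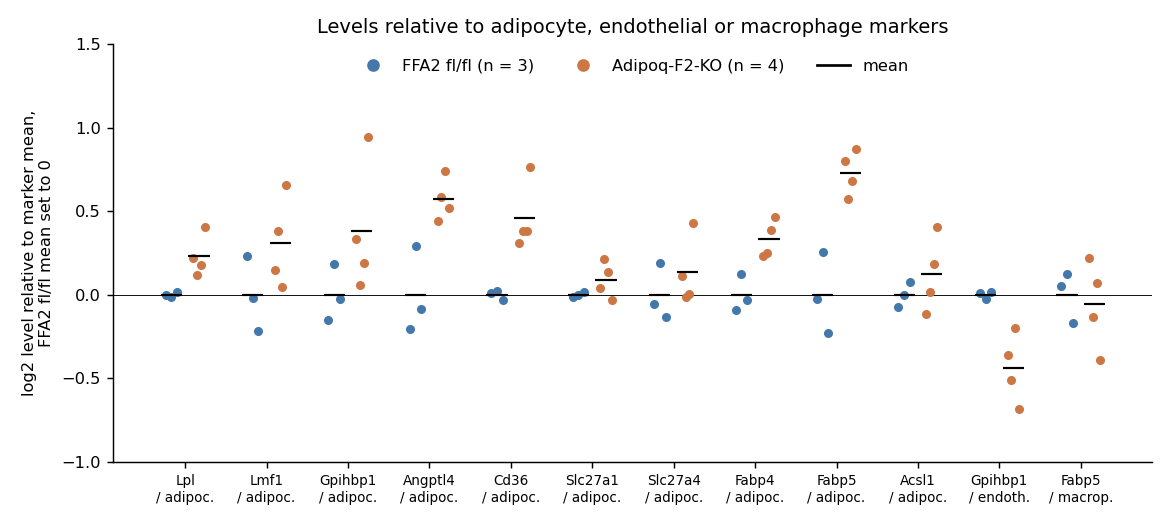
Log2 level of each gene relative to the mean log2 level of adipocyte markers (10 left columns), and of Gpihbp1 relative to endothelial and Fabp5 relative to macrophage markers (2 right columns), with the FFA2 fl/fl mean set to 0. Points are libraries and bars are means. Fabp5 stands 0.73 higher than in controls relative to adipocyte markers and -0.06 relative to macrophage markers, and Gpihbp1 stands at -0.44 relative to endothelial markers.

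Markers of 4 further cell types are given as the background in which the 10 genes were measured, and DESeq2 and limma voom called 0 of the first 3 lists, as edgeR did. Fibroblast progenitor markers, led by Col3a1, Dcn and Col1a1, summed to 941 to 1256 normalized CPM in controls and 1353 to 1503 in Adipoq-F2-KO libraries, with 0 of 10 called and 4 at an unadjusted edgeR p under 0.05. Of the erythroid markers, led by Hbb-bs, Hba-a1 and Hba-a2, 0 of 5 were called and 2 had an unadjusted edgeR p under 0.05, at a median log2 fold change of 0.59. Mesothelial markers, led by Krt19, Wt1 and Lrrn4, summed to at most 25.9 normalized CPM in a library, with 0 of 6 called and 1 in each direction at an unadjusted edgeR p under 0.05. Male germ cell markers, led by Prm2, Tnp2 and Prm1, summed to 0 to 2.52 normalized CPM in controls and reached 136 in Adipoq-F2-KO library 2. In edgeR 0 of 4 tested genes were called and 3 had an unadjusted p under 0.05, while DESeq2, and edgeR with a replicate block, each called 2, Prm1 and Prm2. In that library Lmf1 was the highest and Gpihbp1, Cd36 and Slc27a4 were the lowest of the knockouts.

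The wider pathway was read from a list of 38 other genes, of which 28 were tested. None of them was called in edgeR (0 higher, 0 lower), beside 1.02% of all tested genes. At an unadjusted p under 0.05 there were 5 higher and 2 lower, beside 17.9% of all tested genes in either direction. The list's median log2 fold change was 0.07. With DESeq2, which called 890 genes in all, 1 was called, Acsl4, and 0 with limma voom.

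The gene with the highest level per length was taken from each role. Among the regulators of the lipase this was Apoc1, an apolipoprotein that restrains lipolysis, with a log2 fold change of 0.03 (edgeR adjusted p = 0.901). Apoa5, an apolipoprotein made in liver, had 0 counts in all libraries. Among the vessel-wall lipases Lipg, endothelial lipase, was at 2.19 ± 1.26 normalized CPM (SD, n = 3) in controls and 5.02 ± 2.90 (SD, n = 4) in Adipoq-F2-KO adipocytes, and its log2 fold change was 1.19 (SE 0.47, edgeR adjusted p = 0.217). Sort1, a sorting receptor and the highest of the lipoprotein receptors per length, had a log2 fold change of -0.14 (edgeR adjusted p = 0.448). Got2, whose product is also known as a plasma membrane fatty acid-binding protein, had -0.26 (edgeR adjusted p = 0.244).

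Zdhhc5, an acyltransferase that palmitoylates CD36, had a log2 fold change of 0.00 (edgeR adjusted p = 0.991). Dbi, the acyl-CoA-binding protein, had -0.02 (edgeR adjusted p = 0.933). Fabp6, which encodes the ileal bile acid-binding protein, had 0 counts in every library. Among the synthetases beside Acsl1, Acsl5 was the highest per length, with a log2 fold change of -0.17 (edgeR adjusted p = 0.345). Acsl3 and Acsl4 are named after their values were seen: they had log2 fold changes of 0.44 (SE 0.16, edgeR adjusted p = 0.189) and 0.66 (SE 0.18, edgeR adjusted p = 0.108), and for both the knockout libraries lay above the controls. Of all tested genes, 8.86% lay apart in that direction. Acsl4 was at 26.6 ± 2.62 normalized CPM (SD, n = 3) in controls and 42.0 ± 11.6 (SD, n = 4) in Adipoq-F2-KO adipocytes.

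**Figure D5:**
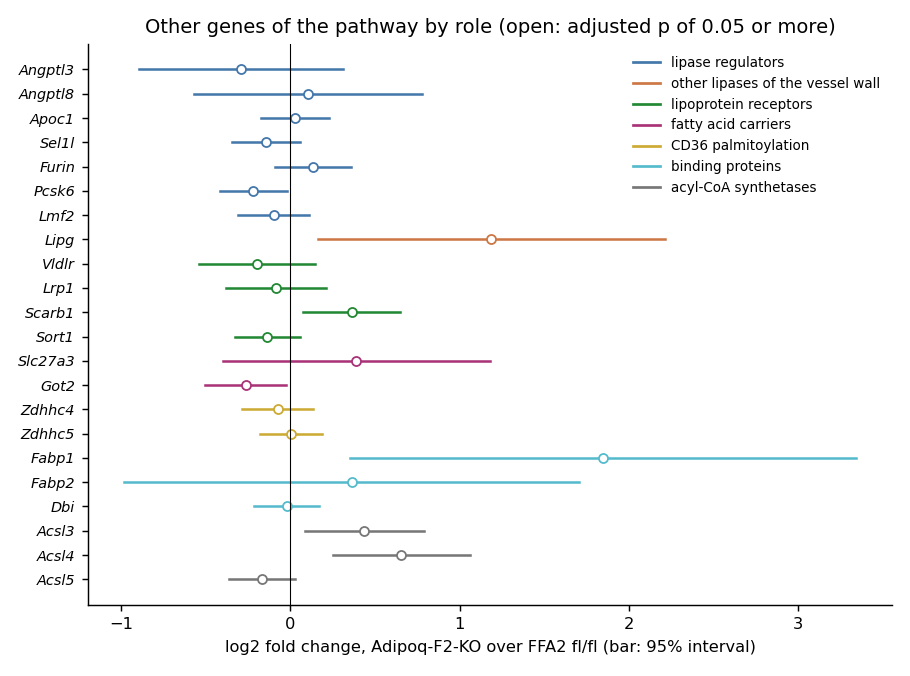
Log2 fold change, Adipoq-F2-KO (n = 4) over FFA2 fl/fl (n = 3), with 95% intervals, for the 22 tested genes of the wider pathway with a genotype mean of at least 1 normalized CPM, coloured by role. All points are open, since no gene plotted passed the adjusted threshold, and Acsl4 at 0.66 has the smallest adjusted p (0.108).

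Of 10 transcription factors known to act on these genes, 1 was called in edgeR, beside 1.02% of all tested genes. Hif1a, the oxygen-sensitive factor, rose from 114 ± 15.6 normalized CPM (SD, n = 3) to 183 ± 25.0 (SD, n = 4), or by 0.68 on the log2 scale (SE 0.13, edgeR adjusted p = 0.0411). That call was lost when any 1 library other than Adipoq-F2-KO library 1 was left out (adjusted p 0.0523 to 0.219). Cebpa, the adipocyte differentiation factor and the highest of the list per length, had a log2 fold change of -0.31 (edgeR adjusted p = 0.377). Pparg, the receptor that drives transcription of Lpl, Cd36, Fabp4 and Angptl4 in adipocytes, is named after its values were seen. It was at 188, 213 and 214 normalized CPM in controls and at 229, 273, 242 and 244 in Adipoq-F2-KO adipocytes, without overlap (log2 fold change 0.27, SE 0.09, edgeR adjusted p = 0.178). Rxra, its partner, and Rxrb and Ppara, likewise named afterwards, had log2 fold changes of -0.27, -0.36 and -0.37 (edgeR adjusted p 0.168 to 0.257), with every knockout library below every control. Of all tested genes, 8.86% lay apart higher, as Pparg did, and 8.72% lay apart lower, as Rxra, Rxrb and Ppara did. Over the list, 2 genes were higher and 3 lower at an unadjusted edgeR p under 0.05, beside 17.9% of all tested genes in either direction.

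Over the 7 libraries, the genes outside the 10 whose pattern was nearest to that of Lpl were Fam98a, Rbbp5, Ssu72, Slc4a2 and Pttg1ip. Likeness was the root mean square difference in log2 normalized CPM after centring each gene, and it was 0.0241 for Fam98a and 0.0317 for Pttg1ip. Among the 10 genes, Fabp4 lay nearest to Lpl at 0.0990, and Slc27a4, Acsl1, Cd36 and Slc27a1 followed at 0.121 to 0.163. Angptl4 at 0.261 and Fabp5 at 0.286 lay farthest from it. These values describe the 7 libraries and were not tested.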

How the data were processed

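RNA-Seq counts of mature adipocytes were used, from 3 floxed control (FFA2 fl/fl) and 4 knockout (Adipoq-F2-KO) mice, with genotype and number taken from the sample titles. The authors used Trimmomatic for trimming, STAR for alignment and featureCounts for counting. Versions and counting options are not given in the sources used here. The deposited values are whole counts without normalization, beside gene coordinates and summed exon lengths. The submitters' processing notes name GRCm38, but the gene coordinates differ from GRCm38, so they are given as deposited, and GRCm38 sequences (GENCODE M21) were used without coordinates. Of low counts, 85.5% to 88.8% were even, so both mates of a pair appear to be counted. A count of 0 allows up to 0.150 to 0.197 CPM in a library (3 fragments, 6 counts), for counting error alone. Symbols were matched for 52029 of 57010 identifiers. No pair of libraries of a genotype was a duplicate, with chi-square values of 41.5 to 165 per degree of freedom.

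Counts were filtered with filterByExpr, scaled by TMM and tested two-sided with the quasi-likelihood F test (edgeR 4.0.16, R 4.3.3), with genotype as the only term and Benjamini-Hochberg adjustment over 17039 genes. Standard errors are the log2 fold change over the square root of F. DESeq2 1.42.0, limma 3.58.1, other scalings and filters, halved counts, a replicate block and leaving out each library were alternatives. Exact permutation tests ran over all 35 splits. Near-identical sequences were sought with BLAST 2.17.0, and coding sequences were aligned with Biopython 1.88. The fits were tested on simulated data. The members and lists were chosen with earlier results of these data known. For 1 gene of the pathway list, results are not reported here, and it was left out of that list's counts. Named are the 10 genes, Ffar2, of the pathway and transcription factor lists each called gene and the highest per length in each role, of each marker list each called gene and the 3 most abundant, and the 5 genes nearest to Lpl.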

Additional observations from a re-analysis of the deposited data

Results flagged for a closer look

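Cd36 in Adipoq-F2-KO library 3, at 3492 normalized CPM, stood apart from the other knockout libraries at 3164 to 3219: its gap to the nearest was 0.832 of the group's range, above Dixon's 95% critical value for 4 samples. Of 15 groups tested this was the 1 that passed, and chance gives about 1 in 20. Without this library the log2 fold change of Cd36 was 0.08, against 0.11 with it, and the 3 remaining knockout libraries still lay above the 3 controls.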

How the results depend on the processing

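For the 10 genes, 143 of 160 log2 fold changes under other settings kept their direction and their side of the threshold, 15 changed direction and 2 passed it. With only genes without any count removed, 1403 of 28515 genes were called (1071 higher, which is 3.76%, and 332 lower). They held 1 of the 10 (Fabp5, log2 fold change 0.39) and 4 of the wider pathway (Acsl4, Scarb1, Fabp1, Lipg), all higher. Of these, Fabp1 had 4 to 132 counts in a library and Lipg 38 to 272, and both overlapped between genotypes in normalized CPM. DESeq2 called 890 genes (670 higher, 220 lower), with 0 of the 10 and 1 of the wider pathway (Acsl4). Leaving out a library gave 1 to 178 called genes, 0 of the 10 and 0 of the wider pathway. The causes were not tested.

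Scaling by adipocyte markers called 2.86% of all tested genes higher, with 1 of the 10 (Fabp5, 0.72), and turned Lpl (0.23), Lmf1 (0.31), Slc27a1 (0.091), Slc27a4 (0.13), Fabp4 (0.33) and Acsl1 (0.13) above 0. Among genes near 0, leaving out 1 library moved Lmf1 from -0.11 to 0.064, Gpihbp1 from -0.047 to 0.14 and Fabp4 from -0.087 to 0.055. Lmf1 was at 0.064 and Gpihbp1 at -0.047 without FFA2 fl/fl library 1, Gpihbp1 at -0.041 and Fabp4 at 0.055 without Adipoq-F2-KO library 4, and Fabp4 at 0.047, 0.013 and 0.018 without FFA2 fl/fl library 2, FFA2 fl/fl library 3 or Adipoq-F2-KO library 2. Comparisons added after the data were seen also turned, Gpihbp1 relative to endothelial markers (-0.44) and Fabp5 relative to macrophage markers (-0.057).

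The log2 difference of Fabp5 to Fabp4 was 0.30 to 0.47 with 1 library left out, where the exact permutation test cannot go below 0.0667 or 0.100. That of Slc27a4 to Slc27a1 ran from -0.095 to 0.14.

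The genotypes share only replicate numbers: same-numbered libraries correlated at 0.0743, -0.0264 and -0.0404 in their deviations. With the replicate block 224 genes were called (191 higher, 33 lower), 0 of the 10 and 0 of the wider pathway, Gpihbp1 stood at -0.042, Fabp4 at 0.053 and the ratio of Slc27a4 to Slc27a1 at -0.095. With 3 and 4 mice, the 95% intervals allow differences of up to 58.7% for Fabp5 and 51.1% for Angptl4. Lmf1, the least abundant, had 871 to 1287 counts in a library.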
